A study of Homo sapiens with 10 samples.

Results

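The fibroblast growth factor (FGF) genes were examined in the RNA sequencing of 4 libraries of cells derived from H9, an established human embryonic stem cell (hESC) line. The genes were taken by name: the FGF ligands, the receptors FGFR1 to FGFR4 and FGFRL1, the inhibitors of the Sprouty (SPRY) and Spred families and IL17RD, and FLRT3, ETV4 and ETV5. This gave 38 genes of 64940 in the table, of which 22 are FGFs, 5 are receptors, 8 are feedback inhibitors, 1 is the membrane protein FLRT3 and 2 are transcription factors. The control group comprised 2 libraries of wild-type cells that the sample labels call spontaneously differentiated. The oeDAZL group comprised 2 libraries of human primordial germ cell-like cells (hPGCLCs), in which DAZL, a germ cell RNA-binding protein, was overexpressed. By the methods of the study, cells for overexpression were differentiated in serum-containing medium with BMP4 and BMP8a, transduced with lentivirus and collected on day 6. For the miRNA libraries, the virus carried DAZL with GFP or GFP alone, and cells were collected by fluorescence-activated sorting. The methods do not describe how the RNA sequencing libraries were prepared. Whether the control cells of these libraries had this differentiation and virus or differentiated spontaneously is not settled by the labels. DAZL and the culture therefore cannot be told apart. The stock hESCs had been kept with basic FGF, the product of FGF2, on mouse feeder cells, and the stated differentiation medium does not list it. The other 6 samples of the series, for miRNA sequencing, were not analysed here.

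FGF ligands bind kinase receptors together with heparan sulfate on the cell surface, and the receptors signal through adaptors and the RAS-ERK cascade. ERK signalling switches on the ETS factors ETV4 and ETV5 and its own inhibitors, among them the Sprouty and Spred proteins, so that the level of these transcripts is widely used as a readout of the pathway. In hESCs, FGF2 is a standard medium component that helps to maintain pluripotency, and in the embryo FGF4 and FGF8 act at the epiblast and primitive streak.

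DAZL was listed at 0 and 0.0333 TPM (transcript abundance scaled to a common total per library) in control and at 102 and 101 TPM in oeDAZL, in the direction of the labels. Of 12 markers of primordial germ cells, 9 had a mean of at least 1 TPM. Their levels differed widely. Over the 4 libraries, EPCAM was between 392 and 494 TPM, TFAP2C between 44.3 and 53.9 TPM, PDPN between 32.9 and 58.5 TPM and ITGA6 between 36.1 and 46.1 TPM. SOX17 was between 2.52 and 3.35 TPM and NANOS3 between 0.732 and 1.66 TPM, and DDX4 and DPPA5 were listed at 0 in each of the 4 libraries. HAND1, GABRP and COL1A2, markers of mesoderm, amnion and mesenchyme, were at 958 to 1250, 1208 to 1408 and 902 to 1090 TPM over the 4 libraries, so that the cultures held transcripts of other cell types beside the labelled one. TPM values are scaled to the same total per library and to transcript length, so levels can be compared between genes, but they keep no read depth, and the depth is unknown. In bulk libraries, fewer cells of a type and less RNA per cell cannot be told apart.

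Genes with a mean of at least 1 TPM were compared with limma on the log2(TPM + 1) scale, on which the change of low genes is understated. A gene was called where its fold change was at least 2 and its unadjusted P at most 0.05, the thresholds of the study's methods. Of the 38 FGF pathway genes, 22 passed the filter, namely all 5 receptors, 7 of 8 inhibitors, FLRT3, ETV4 and ETV5, but 7 of 22 FGFs. Of these 22 genes, 0 were called higher (background over all 16687 genes tested 0.126%) and 0 lower (background 0.563%), against 0.689% of all genes called in either direction. Without the fold threshold, 8 of the 22 had an unadjusted P of at most 0.05 in limma, against 20.2% of all genes tested, with 4 higher (background 5.02%) and 4 lower (background 15.2%) in oeDAZL. The number was 5 without control replicate 1, 11 without control replicate 2, 3 without oeDAZL replicate 1 and 6 without oeDAZL replicate 2. After Benjamini-Hochberg adjustment over all genes in limma, 0 of the 22 were under 0.05 (background 0.0599%), and their lowest adjusted p was 0.0896 (0.0352 without control replicate 2, where 3 of the 22 were under 0.05). The median log2 fold change was −0.06 over the 22 genes and −0.08 over all genes tested, and with quantile normalization it was 0.050 over the 22 genes. The groups did not overlap for 12 of the 22 genes (background 54.4%), with the oeDAZL pair above the control pair for 6 (background 16%) and below it for 6 (background 38.4%).

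**Figure D1:**
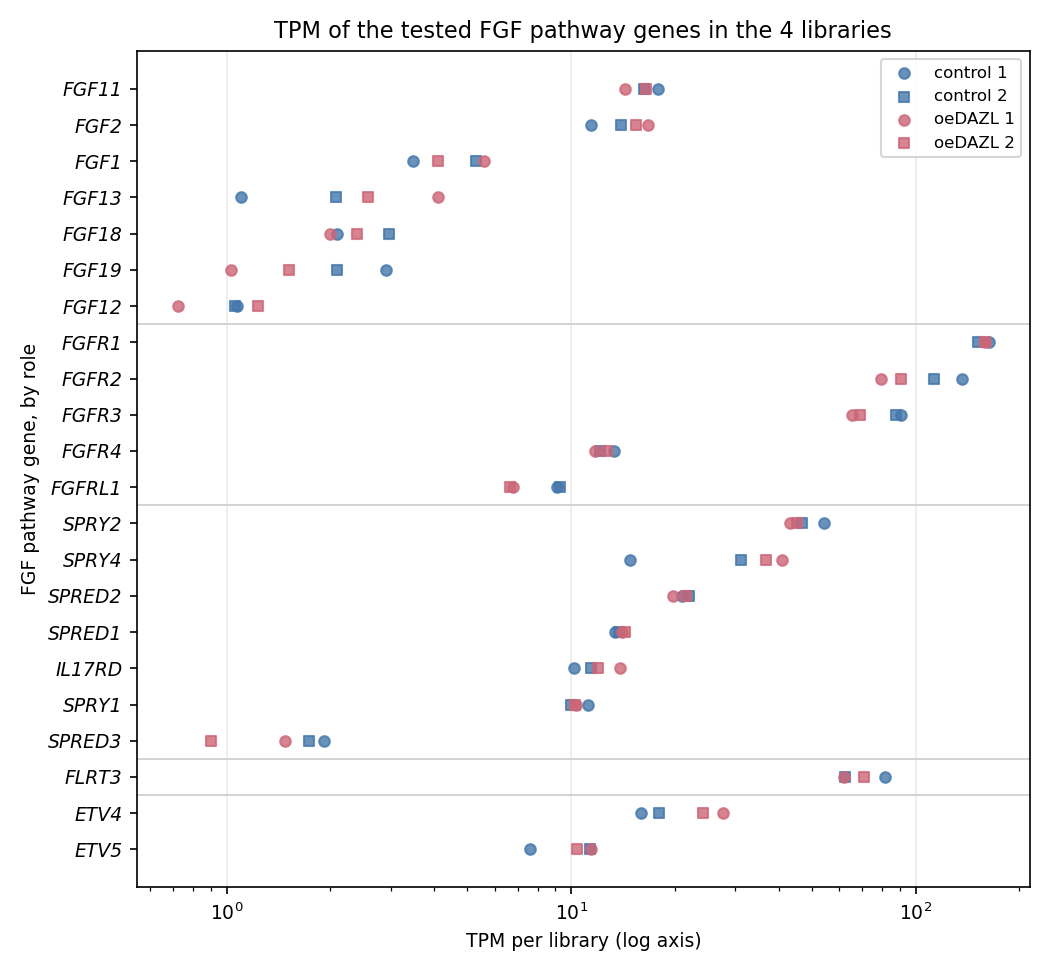
TPM in each library (log axis) of the 22 FGF pathway genes with a mean of at least 1 TPM, grouped by role from ligands at the top to ETS factors at the bottom; circles and squares are replicates 1 and 2. FGFR1 was the highest of the genes at 152 to 164 TPM, and the 2 oeDAZL values of FGFR2 and FGFR3 lie left of both control values.

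Among the ligands, FGF2 was the most abundant of the 18 secreted FGFs. It was at 11.4 and 14.0 TPM in control and 16.7 and 15.4 TPM in oeDAZL. Both oeDAZL libraries were above both control libraries, by less than the 2-fold threshold. The log2 fold change was 0.32 with a standard error of 0.13 and, in limma, an adjusted p = 0.231. It was 0.19 without control replicate 1 and 0.46 without control replicate 2. The unadjusted P in limma was at most 0.05 in 7 of 13 alternative fits. The 7 include a fit with a pairing of libraries chosen after a correlation was seen. FGF2 made up 47.3% and 49.1% of the summed TPM of the secreted FGFs in control and 61.8% and 61.1% in oeDAZL. The share differed by more than the spread between replicates, although with 2 libraries a group the smallest two-sided p of the exact permutation test is 0.333, which was reached here. The summed TPM of the secreted FGFs itself was similar, at 26.3 ± 3.04 (SD, n = 2) in control and 26.1 ± 1.23 (SD, n = 2) in oeDAZL.

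FGF1, which like FGF2 lacks a classical signal peptide and binds all FGF receptors, came next among the secreted ligands, at 3.48 and 5.30 TPM in control and 5.59 and 4.11 TPM in oeDAZL. The groups overlapped, with a log2 fold change of 0.13 and a 95% interval from −0.43 to 0.68. FGF18, a ligand known for its role in skeletal development, was at 2.09 and 2.97 TPM in control and 2.0 and 2.38 TPM in oeDAZL, and these groups overlapped too.

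FGF19, an endocrine FGF that controls bile acid synthesis, was lower in both oeDAZL libraries. It was at 2.89 and 2.09 TPM in control and 1.03 and 1.52 TPM in oeDAZL. The log2 fold change was −0.62 with a standard error of 0.24 and, in limma, an adjusted p = 0.230. It was −0.45 without control replicate 1 and −0.78 without control replicate 2. With quantile normalization it was −0.44 (unadjusted P = 0.102 in limma), and with 0.1 TPM added in place of 1 it was −0.92 (unadjusted P = 0.0445 in limma). Its fellow endocrine genes were close to absent from the table: FGF21 was listed at 0 in all 4 libraries and FGF23 at 0.125 TPM in 1 oeDAZL library alone.

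The remaining secreted ligands had a mean below 1 TPM and were not tested. Among these were FGF4, a product of pluripotent cells, and FGF8, a product of the primitive streak. FGF4 was at 0.165 and 0.331 TPM in control and 0.119 and 0.129 TPM in oeDAZL, so that this marker of the pathway in pluripotent cells was near 0 in all 4 libraries. FGF8, with a mean of 0.978 TPM, was the gene just under the filter, and FGF12, with 1.02 TPM, the one just above it. FGF8 was at 2.1 and 0.865 TPM in control and 0.320 and 0.624 TPM in oeDAZL. FGF3 was at 0.471 and 0.151 TPM in control and listed at 0 in both oeDAZL libraries. Of the 13 untested genes listed above 0 in some library, 7 had both oeDAZL libraries below both control libraries, namely FGF3, FGF4, FGF7, FGF8, FGF9, FGF10 and FGF22, and 0 had both above. Over all 16564 genes listed above 0 with a mean under 1 TPM, the shares were 18.1% and 8.43%. At this level FGF7 differed by less than 0.03 TPM. FGF6, FGF16 and FGF21 were listed at 0 in every library.

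Markers of the primitive streak were mixed. TBXT, the streak factor brachyury, was at 2.49 and 1.25 TPM in control and 0.319 and 0.546 TPM in oeDAZL, with a log2 fold change of −0.97 and an adjusted p = 0.173 in limma, and MESP1 and MSGN1 were also below both control libraries. MIXL1 was at 2.48 and 2.34 TPM in control and 1.59 and 2.60 TPM in oeDAZL, and the groups overlapped for EOMES, GSC and TBX6 as well. Of the 12 streak and mesoderm markers, 6 were tested and 0 were called, 1 had an unadjusted P of at most 0.05 with a higher value (background 5.02%) and 2 with a lower one (background 15.2%), and none was at 0 in all libraries. Their summed TPM, almost all of it HAND1, ran from 997 to 1074 in control and from 1273 to 1274 in oeDAZL. The part of these cells in the FGF values was not tested.

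The intracellular FGFs, FGF11 to FGF14, are not secreted and act on sodium channels and the cytoskeleton in place of receptors. FGF11 had the highest mean TPM of all FGF genes over the 4 libraries, while FGF2 was higher in the oeDAZL mean. FGF11 was at 17.8 and 16.3 TPM in control and 14.3 and 16.5 TPM in oeDAZL, and the groups overlapped (log2 fold change −0.14, 95% interval from −0.41 to 0.13; −0.044 without oeDAZL replicate 1, −0.24 without oeDAZL replicate 2). FGF13 was at 1.10 and 2.07 TPM in control and 4.12 and 2.57 TPM in oeDAZL. Its 2 oeDAZL libraries were the higher ones. The log2 fold change of 0.75 (standard error 0.29; adjusted p = 0.222 in limma) became 1.02 without control replicate 2 and 1.0 without oeDAZL replicate 2, where it met both thresholds, and 0.48 without control replicate 1. FGF12 lay between 0.720 and 1.24 TPM, and FGF14 did not exceed 0.0677 TPM.

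FGFR3 had the lowest P of the 22 genes. Of the 5 receptors, 3 were lower in oeDAZL with an unadjusted P of at most 0.05 in limma (background 15.2%). Of the 4 kinase receptors, FGFR1 was the most abundant, at 164 and 152 TPM in control and 159 and 159 TPM in oeDAZL. Its groups overlapped, and its log2 fold change of 0.0093 had a 95% interval from −0.13 to 0.15. FGFR4, a receptor for FGF19, was at 13.4 and 12.1 TPM in control and 11.7 and 12.7 TPM in oeDAZL, and its groups overlapped as well (log2 fold change −0.06, 95% interval from −0.33 to 0.21).

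FGFR2 and FGFR3 were lower in oeDAZL. FGFR2, which through alternative splicing serves both epithelial and mesenchymal cells (hg38 chr10:121478332-121598458, minus strand), was at 136 and 113 TPM in control and 79.6 and 90.8 TPM in oeDAZL. The groups did not overlap, and the log2 fold change of −0.54 (standard error 0.11) left 0.687 of the control level, at an adjusted p = 0.0987 in limma. FGFR3, a receptor that restrains growth of cartilage (hg38 chr4:1793293-1808872, plus strand), was at 90.6 and 88 TPM in control and 65.2 and 68.8 TPM in oeDAZL. The 2 replicates of each group were close together, and limma gave a log2 fold change of −0.41, a standard error of 0.06 and an adjusted p = 0.0896. FGFR2 and FGFR3 had log2 fold changes between −0.67 and −0.33 and an unadjusted P of at most 0.05 in limma under each of the 13 alternative fits run. FGFRL1, a receptor without a kinase domain that can bind ligands, followed the same direction, at 9.07 and 9.30 TPM in control and 6.79 and 6.65 TPM in oeDAZL (log2 fold change −0.40, standard error 0.12, adjusted p = 0.164 in limma).

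The make-up of the kinase receptors was compared next. The summed TPM of FGFR1 to FGFR4 was 404 and 365 in control and 315 and 331 in oeDAZL. FGFR1 made up 40.5% and 41.7% of it in control and 50.3% and 48.0% in oeDAZL. FGFR2 made up 33.7% and 30.9% in control and 25.3% and 27.4% in oeDAZL. These shares do not depend on how the libraries are scaled. They differed by more than the spread between replicates, with the smallest p that the exact permutation test allows (0.333, two-sided). The gene-level values do not separate the splice forms of a receptor.

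**Figure D2:**
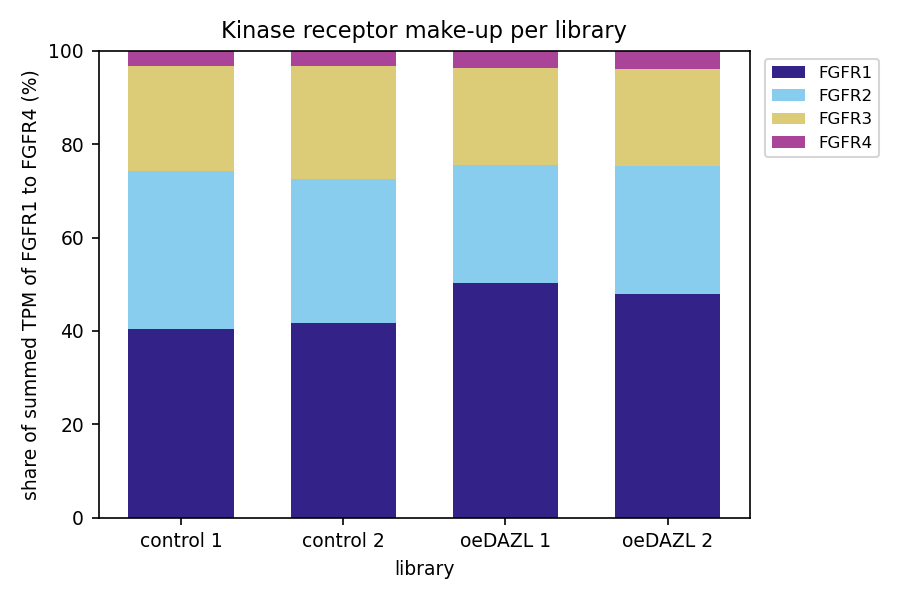
Share of the summed TPM of the 4 FGF receptor kinases (%) in each library, stacked from FGFR1 at the bottom to FGFR4 at the top. The FGFR1 share is 40.5% and 41.7% in control and 50.3% and 48.0% in oeDAZL.

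Of the mesenchyme markers, more were lower than higher in oeDAZL beside FGFR2 and FGFR3. Of 10 such markers, all of them tested, 2 fell (background 0.563%) and 0 rose by the call rule, COL3A1 (log2 fold change −1.25) and DCN (−1.08), both of which encode components of the extracellular matrix, and 6 of the 10 had a lower value with an unadjusted P of at most 0.05 (background 15.2%). Without control replicate 1 the call of DCN was lost (−0.80) and that of COL3A1 was not (−1.10). Their summed TPM was 5058 and 5521 in control and 4622 and 4561 in oeDAZL, and none was at 0. VIM, the intermediate filament of mesenchymal cells, was at 1188 and 1460 TPM in control and 1539 and 1469 TPM in oeDAZL, in the opposite direction. Of 12 markers of amnion and trophoblast, 11 were tested, 0 rose and 1 fell (background 0.563%) by the call rule. This was CGA, the alpha subunit of chorionic gonadotropin, which fell by 1.18 on the log2 scale (−0.92, under the 2-fold threshold, without control replicate 1). With an unadjusted P of at most 0.05 in limma, 4 were lower (background 15.2%) and 1 was higher (background 5.02%). The median log2 fold change of the 11 was −0.19. The summed TPM of the 12 markers was 4394 to 4546 in control and 4600 to 4698 in oeDAZL, with none at 0. The part of these cell types in the receptor values was not tested.

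Among the feedback inhibitors, SPRY2 had the highest TPM in every library. SPRY4 came next by its mean over the 4 libraries, although in control replicate 1 SPRED2 was higher. SPRY4 (hg38 chr5:142310427-142326455, minus strand) was at 14.8 and 31.2 TPM in control and 41.0 and 36.8 TPM in oeDAZL. The oeDAZL libraries were the higher pair, but the controls differed from each other by more than oeDAZL replicate 2 did from control replicate 2. The log2 fold change was 0.82 with a standard error of 0.30 and, in limma, an adjusted p = 0.216. It was 0.31 without control replicate 1 and 1.34 without control replicate 2, where it met both thresholds, so that its size rests on which control library is used.

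SPRY2, an inhibitor of RAS-ERK signalling induced by FGF, was at 54.3 and 46.7 TPM in control and 43.1 and 45.2 TPM in oeDAZL. Its direction was opposite to that of SPRY4, with a log2 fold change of −0.18 (95% interval from −0.40 to 0.03), which was −0.078 without control replicate 1 and −0.29 without control replicate 2. SPRY1 was at 11.2 and 9.97 TPM in control and 10.4 and 10.3 TPM in oeDAZL, and its groups overlapped. SPRY3, in the pseudoautosomal region of the X chromosome, was below 0.4 TPM in every library. Its copy on the other sex chromosome has an entry of its own in the table, which was left out. By the methods of the study only unique alignments were kept. Reads that match both copies may therefore be lost, and the level of SPRY3 may be understated.

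The Spred proteins bind neurofibromin and restrain RAS. SPRED2 was at 20.9 and 22 TPM in control and 19.7 and 21.6 TPM in oeDAZL, and SPRED1, the gene of Legius syndrome, at 13.4 and 13.8 TPM in control and 14.1 and 14.3 TPM in oeDAZL. Neither differed by more than a log2 fold change of 0.06 from control. SPRED3 was at 1.92 and 1.74 TPM in control and 1.48 and 0.903 TPM in oeDAZL (log2 fold change −0.38, 95% interval from −0.97 to 0.21), a fold change that was −0.57 without oeDAZL replicate 1 and −0.19 without oeDAZL replicate 2. IL17RD, the inhibitor also called SEF, was at 10.2 and 11.4 TPM in control and 13.9 and 11.9 TPM in oeDAZL, with a log2 fold change of 0.23 (95% interval from −0.07 to 0.54) that was 0.13 without oeDAZL replicate 1 and 0.33 without oeDAZL replicate 2. FLRT3, a membrane protein that binds FGF receptors, was at 81.8 and 62.3 TPM in control and 62.1 and 70.9 TPM in oeDAZL, and its groups overlapped.

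The ETS factors ETV4 and ETV5 are transcribed in response to FGF signalling. ETV4 (hg38 chr17:43527844-43579620, minus strand) was at 15.9 and 18.0 TPM in control and 27.5 and 24.1 TPM in oeDAZL. Both oeDAZL libraries were above both controls, and the log2 fold change of 0.58 (standard error 0.11) corresponds to 1.49 times the control level, with an adjusted p = 0.0933 in limma. The log2 fold change stayed between 0.49 and 0.67 under the 13 alternative fits, with an unadjusted P of at most 0.05 in each of them. ETV5 was at 7.60 and 11.3 TPM in control and 11.4 and 10.4 TPM in oeDAZL. Its groups overlapped, the low value being that of control replicate 1, the library in which SPRY4 was also low.

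**Figure D3:**
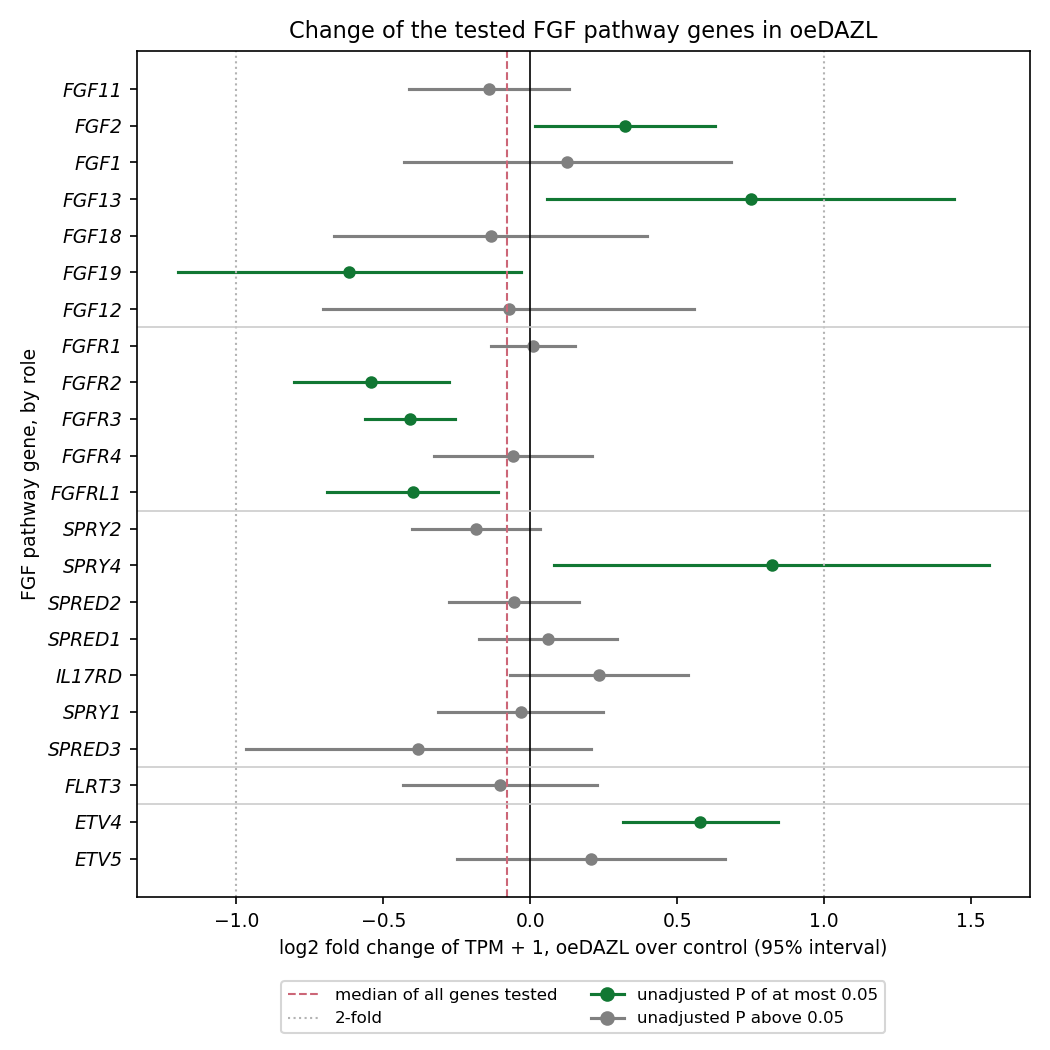
Log2 fold change of TPM + 1, oeDAZL over control, with its 95% interval from limma, for the 22 genes tested; the dashed line is the median of all genes tested (−0.08) and dotted lines mark a 2-fold change. FGFR2, FGFR3, FGFRL1 and FGF19 lie below 0 with their whole interval, FGF2, FGF13, SPRY4 and ETV4 above 0, and no estimate reaches 2-fold.

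**Figure D4:**
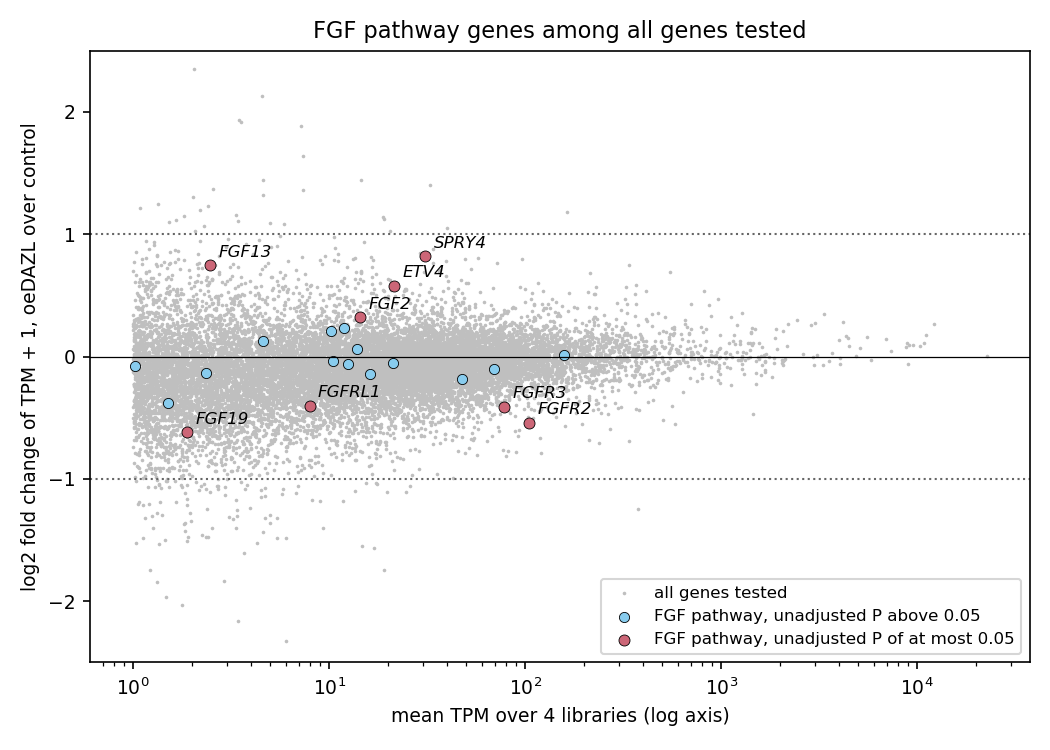
Log2 fold change of TPM + 1, oeDAZL over control, against mean TPM (log axis) for all 16687 genes tested (gray) and the 22 FGF pathway genes (coloured); 5 genes lie outside the plotted range. The FGF pathway genes lie inside the cloud of all genes, with FGFR2 and FGFR3 below 0 and ETV4 and SPRY4 above 0.

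The other genes of the pathway were read from 3 lists. Of 28 cofactors of FGF ligands and genes of heparan sulfate, 24 were tested and 0 were called, and 11 had an unadjusted P of at most 0.05 in limma, 2 higher (background 5.02%) and 9 lower (background 15.2%). Their median log2 fold change was −0.22. HSPG2, the heparan sulfate proteoglycan perlecan, was at 206 and 177 TPM in control and 124 and 134 TPM in oeDAZL (log2 fold change −0.57, adjusted p = 0.0896 in limma). The glypican gene GPC1 was at 93.5 and 93.6 TPM in control and 67.7 and 72.9 TPM in oeDAZL. In contrast, SDC4, the proteoglycan syndecan 4, was at 197 and 204 TPM in control and 250 and 252 TPM in oeDAZL. KL and KLB, the klotho co-receptors that endocrine FGFs require, did not exceed 0.352 TPM in any library.

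Of 28 adaptors and members of the RAS-ERK cascade, 27 were tested, 0 were called and 11 had an unadjusted P of at most 0.05 in limma, 6 higher (background 5.02%) and 5 lower (background 15.2%), with a median log2 fold change of −0.04. NRAS was at 95.7 and 104 TPM in control and 123 and 126 TPM in oeDAZL. LZTR1, an adaptor for the degradation of RAS proteins, was at 42.3 and 39.5 TPM in control and 31.2 and 31.6 TPM in oeDAZL. PLCG1, a phospholipase that binds activated FGF receptors, was at 118 and 106 TPM in control and 88.8 and 90.5 TPM in oeDAZL. The log2 fold changes of these 3 genes lay between −0.37 and 0.32.

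Of 18 ERK response genes outside the 38, 16 were tested, 0 were called and 5 had an unadjusted P of at most 0.05 in limma, 4 higher (background 5.02%) and 1 lower (background 15.2%). Their median log2 fold change was 0.25, against −0.08 over all genes. For 9 of them the oeDAZL pair was above the control pair (background 16%), and for 2, CIC and DUSP4, below it (background 38.4%). Much of the shift in the median rests on control replicate 1, without which the median was 0.08. It also depended on oeDAZL replicate 1, without which the median was 0.15. The summed TPM of the list was 429 and 542 in control and 610 and 559 in oeDAZL, so that control replicate 2 was close to oeDAZL replicate 2. CCND1, the cell cycle gene cyclin D1, was at 82 and 154 TPM in control and 165 and 148 TPM in oeDAZL. The immediate early genes FOS and EGR1 had log2 fold changes of 0.35 and 0.34. FOS was at 56.9 and 47.6 TPM in control and 65.9 and 67.5 TPM in oeDAZL, and EGR1 at 19.1 and 21.2 TPM in control and 26.4 and 24.9 TPM in oeDAZL. In this list CIC is a repressor of ETV4, ETV5 and SPRY4 that ERK inactivates, and not a gene read as induced by ERK. Counted here all the same, CIC was the 1 gene lower with an unadjusted P of at most 0.05 in limma. It was at 32.8 and 29.9 TPM in control and 26 and 25.8 TPM in oeDAZL (log2 fold change −0.27, adjusted p = 0.173 in limma). DUSP4 was at 4.79 and 4.72 TPM in control and 4.13 and 3.97 TPM in oeDAZL (log2 fold change −0.19). DUSP6, a phosphatase that removes ERK phosphorylation and a usual companion of SPRY4, was at 12.4 and 13.3 TPM in control and 15.7 and 13.7 TPM in oeDAZL, with a log2 fold change of 0.18 (adjusted p = 0.418 in limma).

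Pluripotency markers differed in both directions. Of 12 such markers, 7 were tested and 0 were called, with a median log2 fold change of 0.07 (−0.07 without control replicate 1, −0.11 without oeDAZL replicate 2), 3 had an unadjusted P of at most 0.05 in limma, all higher (background 5.02%), and none was at 0 in all libraries. POU5F1 was at 13.6 and 10.6 TPM in control and 22.4 and 20.4 TPM in oeDAZL, and TDGF1 at 5.05 and 8.26 TPM in control and 14.1 and 10.6 TPM in oeDAZL. DPPA4 was below both controls in oeDAZL, at 45.3 and 44.2 TPM in control and 40.5 and 42.4 TPM in oeDAZL, and so was PRDM14, which did not exceed 0.467 TPM in any library. NANOG stayed below 1 TPM in every library, and SOX2 was at 5.16 and 2.57 TPM in control and 2.16 and 2.04 TPM in oeDAZL. The summed TPM of the 12 markers was 132 and 136 in control and 155 and 153 in oeDAZL, and its part in the FGF values was not tested. The 12 germ cell markers had 0 calls. Of the 9 tested, 2 had an unadjusted P of at most 0.05 in limma, both higher (background 5.02%). The oeDAZL pair was above the control pair for 2 of the 9 (background 16%) and below it for 3 (background 38.4%). NANOS3, among the 3, was at 1.39 and 1.66 TPM in control and 1.07 and 0.732 TPM in oeDAZL. The summed TPM of the 12 was 551 to 562 in control and 635 to 657 in oeDAZL, most of it EPCAM.

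The remaining marker lists added 2 calls, both of which were lost without control replicate 1, where the log2 fold changes of AFP and PAX6 were −0.34 and −0.71, and without oeDAZL replicate 1, where they were −0.87 and −1.05. With all 4 libraries, the call of AFP was also lost with no filter, with at least 5 TPM, with median-of-ratios scaling, quantile normalization or rescaling without mitochondrial genes, and in limma without trend, and the call of PAX6 was lost with no filter. Of 10 endoderm markers, all tested, 1 fell (background 0.563%) and 0 rose by the call rule. This was AFP, the fetal serum protein, which fell by 1.04 on the log2 scale. With an unadjusted P of at most 0.05 in limma, 2 were lower (background 15.2%), AFP and CER1 (log2 fold change −0.92), and 0 were higher (background 5.02%). The summed TPM of the 10 was 181 to 290 in control and 182 to 222 in oeDAZL. Of 10 neural markers, 6 were tested, 1 fell (background 0.563%) and 0 rose by the call rule. This was PAX6, a regulator of the early neural tube, which fell by 1.30. With an unadjusted P of at most 0.05 in limma, 2 were lower (background 15.2%), PAX6 and OTX2 (log2 fold change −0.87), and 1 was higher (background 5.02%), NES (0.52). The summed TPM was 467 to 600 in control and 655 to 711 in oeDAZL, most of it NES and TUBB3. Of 10 endothelial and blood markers, 3 were tested and 0 were called, 0 had an unadjusted P of at most 0.05 in limma, and PECAM1, HBE1 and HBZ were listed at 0 in all libraries.

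Because the study concerns miRNAs, the 3′UTRs of the FGF pathway genes were searched for the seeds of 5 miRNAs that it discusses, miR-199a-3p, let-7a-5p, miR-125b-5p, miR-22-3p and miR-21-5p, whose levels were not analysed here. An 8mer site here pairs with bases 2 to 8 of a mature miRNA and ends in A. The mature sequences of the 2 miRNAs whose sites are shown are given here from RefSeq (GRCh38.p14), with the seed in capitals.
let-7a-5p: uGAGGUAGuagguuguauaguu
miR-21-5p: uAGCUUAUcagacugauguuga

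The 8mer of miR-21-5p, ATAAGCTA on the transcript strand, was in the longest GENCODE 44 3′UTR of 4 of the 38 genes, FGF1, FGF18, SPRY1 and SPRY2, and in those of 2.95% of the 13047 tested genes with a 3′UTR. SPRY1 and SPRY2 are textbook targets of miR-21. The 3′UTRs of the tested FGF pathway genes were longer, with a median of 2408 bases against 1518 over all tested genes, which bears on such counts. The shares cover tested genes only, here and for the other miRNAs, while the 38 genes include 16 that were not tested. The sites are printed because they fall in the inhibitors and ligands described above, each in hg38, on the strand named, with the 8mer in capitals.
SPRY1, chr4:123402966-123402973, plus strand: taattgcttaaATAAGCTAtgtattaaatc
SPRY2, chr13:80336515-80336522, minus strand: ccatgtattgcATAAGCTAaagcaacacag
FGF1, chr5:142593687-142593694, minus strand: ggatacaatgtATAAGCTActcacttatct
FGF18, chr5:171457528-171457535, plus strand: attatatatatATAAGCTAtttatttcacc

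The log2 fold changes of these 4 genes were −0.03 for SPRY1, −0.18 for SPRY2, 0.13 for FGF1 and −0.14 for FGF18, and the 95% interval of each of them includes 0. The same seed without the final A was found in FGF2, FGF7, FGF12, FGFRL1, IL17RD and SPRY4. With or without the A it was in 10.5% of the tested genes with a 3′UTR.

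The 8mer of let-7, CTACCTCA on the transcript strand, was in 2 of the 38 genes, FGF11 and FGF4, and in 4.73% of the tested genes with a 3′UTR. Both are shown because FGF11 was among the most abundant FGFs and FGF4 was near 0.
FGF11, chr17:7444338-7444345, plus strand: tgaatacttagCTACCTCAgcaggaattcc
FGF4, chr11:69772250-69772257, minus strand: gcgtttaacatCTACCTCAcaagccctgaa

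FGF11 had a log2 fold change of −0.14, with overlapping groups, and FGF4 was not tested. The 3′UTRs of FGFR2 and FGFR3 held an 8mer of none of the 5 miRNAs, and each held the complement of bases 2 to 8 of miR-22-3p, GGCAGCT, without the final A, as did 17.2% of the tested genes with or without it. FGFR3 held that of miR-125b-5p, CTCAGGG, as well. FGFR1, whose groups overlapped, also held those of miR-22-3p and miR-125b-5p. The match to miR-22-3p was in FGF13, IL17RD and SPRY3 too. ETV4 and ETV5 held none of these matches. Other 8mers were found in IL17RD for miR-22-3p (GGCAGCTA, 2.51% of tested genes), in FGF13 for miR-125b-5p (CTCAGGGA, 6.22%), and in FGF7, FGF10, FGF13, FGF14 and SPRED1 for miR-199a-3p (ACTACTGA, 3.04%). A match of letters is a description and does not show that a miRNA acts there.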

How the data were processed

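The authors deposited 1 table of TPM per gene, with a column per library and replicates not pooled. By their methods, reads were trimmed, mapped to hg38 with HISAT2 (2.1.0), restricted to unique alignments and quantified with StringTie (2.1.4). The annotation release is not given in the sources used here. Of 65003 entries, 45 pseudoautosomal copies and 18 repeats of a gene were left out, and 40 entries matched the gene names, of which 2 second entries (SPRY3 copy, FGF11 at 0) were not counted. The 16687 genes whose mean reached 1 TPM were fitted on log2(TPM + 1) with limma 3.58.1 (R 4.3.3; lmFit, eBayes with trend), oeDAZL against control without covariates; P-values measure the spread between libraries, which may be technical. The study used DESeq2 on counts, which were not used here. The members, lists and tests were chosen with earlier results of these data known. Named were all 38 genes, DAZL, the 3 pathway genes of each list with the lowest P, and called marker genes. HAND1, GABRP, COL1A2, VIM, SOX17, NANOS3, TFAP2C, PDPN, ITGA6, TBXT, MESP1, MSGN1, POU5F1, TDGF1, NANOG, SOX2, DPPA4, PRDM14, MIXL1, EOMES, GSC, TBX6, CCND1, EPCAM, CER1, OTX2, NES, TUBB3, KL, KLB, DUSP4 and DUSP6, and markers at 0, were chosen after their values were seen. The fit was checked on simulated data.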

Additional observations from a re-analysis of the deposited data

How the results depend on the processing

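With 2 libraries per group and no depth, only large or very regular differences can be called. The 13 alternative fits include those with a library left out and the crossed pairing described below, which was chosen after a correlation was seen. FGFR2, FGFR3 and ETV4 kept an unadjusted P of at most 0.05 in limma under all 13 alternatives, and the 8 genes with such a P kept their direction. The number of FGF pathway genes called, 0 in each direction, became 1 higher with a pseudocount of 0.1 (FGF13) 2 without control replicate 2 (SPRY4 and FGF13), 1 without oeDAZL replicate 2 (FGF13) and 0 without each of the others; with no fold threshold it was 4 higher and 4 lower, and with an adjusted p it was 0. Their median log2 fold change (−0.06) was 0.022 with median-of-ratios scaling and 0.050 with quantile normalization, where the median of all genes moved from −0.08 to −0.0026 and 0.0061, and ran from −0.11 to −0.0066 with each library left out. Genes called among all, 21 higher and 94 lower, numbered 55 and 267 where 0.1 TPM was added in place of 1, 6 and 23 among genes of at least 5 TPM, 41 and 52 with quantile normalization, 3 and 2 with an adjusted p, and from 35 and 85 without control replicate 1 to 87 and 235 without control replicate 2. The share of lower calls was 81.7%, and 55.9% with quantile normalization. Marker genes called lower, 5, numbered 8 with 0.1 TPM added, 3 with no filter, at least 5 TPM or quantile normalization, and 1 without control replicate 1 to 8 without control replicate 2, with 0 to 1 higher; genes of the pathway lists called lower numbered 0, or 1 without oeDAZL replicate 2.

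Estimates near 0 changed sign. With median-of-ratios scaling FGFR4 had a log2 fold change of 0.020, SPRY1 of 0.044 and SPRED2 of 0.024. With quantile normalization FGFR4 had 0.052, SPRY1 0.077, SPRED2 0.036, FGF12 0.089 and FGF18 0.048. With each library left out, FGF1 ran from −0.12 to 0.37, FGF12 from −0.26 to 0.12, FGF18 from −0.32 to 0.046, FGFR1 from −0.042 to 0.061, FGFR4 from −0.12 to 0.0058, SPRY1 from −0.11 to 0.044, SPRED2 from −0.12 to 0.0052, FLRT3 from −0.30 to 0.089 and ETV5 from −0.054 to 0.47. The cause was not tested beyond the construction of each alternative.

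Libraries of the 2 groups share only a replicate number, and deviations of same-numbered libraries from their group means had r = −0.104 across genes, which are not independent. With the replicate number as a block, 26 genes were called higher and 99 lower, 0 FGF pathway genes were called, and 5 of them had an unadjusted P of at most 0.05 in limma in place of 8. With the numbers crossed, a pairing chosen after this correlation was seen, 28 genes were called higher and 107 lower, 0 FGF pathway genes were called, and 1089 genes had an adjusted p under 0.05 in place of 10, among them 4 FGF pathway genes in place of 0.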
